A study of Homo sapiens with 28 samples.

Results

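The 49 genes described here act at the passage from G1 into S phase and in DNA replication, and they were taken by symbol from the 57820 genes counted in 28 RNA-seq libraries of SEM cells. The list holds 3 E2F transcription factors, 5 cyclins of the G1/S step, 9 licensing factors, 6 factors that activate the helicase, 15 polymerase, clamp, single-strand binding and ligation genes, 5 genes of nucleotide supply and uracil removal, and 6 checkpoint, chromatin and histone mRNA genes. Levels are in CPM, the counts of a gene scaled to a common library size with TMM factors. A gene passed the filter on low values when it was above 1 CPM in at least 1 library, and 47 of the 49 did so in both sets of libraries. The other 2 were CCND1 and CCND2, which encode D-type cyclins and stood below that level in every library.

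In G1, cyclin-dependent kinases driven by D-type and E-type cyclins phosphorylate the RB family and release E2F factors, which then turn on the genes of DNA synthesis. Before S phase, ORC, CDC6 and CDT1 load the MCM2-7 helicase on replication origins (licensing), and CDC45 and the GINS complex later activate it so that polymerases, the PCNA clamp and its RFC loader can copy the DNA. Many of these genes are transcribed in a wave at the start of S phase, and leukemia lines that divide all the time express them.

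SEM is a human B-cell acute lymphoblastic leukemia line with the MLL-AF4 fusion. The 24 h set held CTCF-AID2 cells with 5-Ph-IAA (4 libraries) and without it (4 libraries), and SEM WT cells, which lack the degron, with IAA (2 libraries) and without it (2 libraries). For SEM WT cells the methods add doxycycline to the IAA, which the labels do not name, so a change with IAA in these cells may be one with both agents, and they cannot be told apart. In CTCF-AID2 cells the endogenous CTCF carries a miniAID-mClover3 degron, and OsTIR1(F74G) is made all the time, together with a degron-tagged EGFP and RFP, from a lentivirus with the MND promoter, on top of an earlier inducible OsTIR1 at AAVS1. All of these cells, treated or not, carry these alleles. The 6 h set held 4 lines named WT, dZF1, dZF10 and dRBR, each with IAA (2 libraries) and without it (2 libraries). Per the methods these are CTCF-AID2 cells with an added, doxycycline-inducible HA-tagged CTCF in its full-length form (WT) or in the mutant form that gives the line its name. The WT line is thus a CTCF-AID2 derivative and not the parental SEM WT of the 24 h set. The labels name IAA at 6 h where the methods name 5-Ph-IAA, and do not say which libraries held the added protein. For the 24 h cells the titles give 1 µM 5-Ph-IAA and the treatment text another dose. Nothing in the labels says that replicates were separate cultures, so p-values measure only how far these libraries vary, and that variation may be technical.

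A library of the 24 h set held 45697921 to 59780480 counts, and one of the 6 h set held 25833955 to 60730749 counts. CTCF mRNA, which the degron does not target, averaged 252.5 CPM in treated CTCF-AID2 cells and 147.6 CPM in untreated ones (0.77 ± 0.02 on the log2 scale, SE, limma adjusted p = 6.96e-12), and did not pass in SEM WT cells (-0.10 ± 0.04, limma adjusted p = 0.0562). It was also higher with IAA at 6 h (0.64 ± 0.04, limma adjusted p = 3.54e-07), where reads of the endogenous and the added gene cannot be told apart, and protein loss was not measured by these libraries. Of 11 B lineage markers, 10 or 11 were above 1 CPM in each library. Of the markers of other cells, the 5 erythroid ones summed to at most 0.0188 CPM, and 2 of 9 T and NK cell, 2 of 8 myeloid and 1 to 2 stromal markers were above 1 CPM. In one pair the replicates stood apart: the chi-square per degree of freedom over genes was 146 between the 2 IAA libraries of the dZF1 line, against 2.85 to 40.5 for all other pairs of replicates. This value does not say which of the 2 libraries departs. The counts of genes called at 6 h are given with and without dZF1 IAA replicate 2, a choice made after the data were seen. Counts without dZF1 IAA replicate 1 are given for some comparisons only. In bulk RNA, fewer cells in S phase and less RNA per cell cannot be told apart.

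Promoter windows from RefSeq (build GRCh38.p14, 250 bases before to 50 bases after the start) were found for 40 of the 49 genes. The remaining 9 were CCND1, CCND2, CCNE2, E2F8, GINS4, MCM4, MCM5, POLD3 and RPA2. An E2F site, spelled TTTCCCGC, TTTGGCGC, TTTCGCGC or TTTGCCGC on either strand with overlaps counted, was present in 23 of these 40 genes (57.5%), against 1090 of all 27305 genes with a window (3.99%). The CCAAT box (CCAAT) was in 60% against 39.7%, the GC box (GGGCGG) in 77.5% against 48.3%, the E-box (CACGTG) in 12.5% against 8.77%, and the CHR element (TTTGAA) in 5% against 18.2%. Matches are letters in a window and not bound sites. The promoter of E2F2, which encodes an activating E2F factor and showed the largest response of the 47 genes at 24 h, is shown whole, from chr1:23531184-23531483 on the minus strand, with its single match in capitals, 42 bases before the start:
E2F2: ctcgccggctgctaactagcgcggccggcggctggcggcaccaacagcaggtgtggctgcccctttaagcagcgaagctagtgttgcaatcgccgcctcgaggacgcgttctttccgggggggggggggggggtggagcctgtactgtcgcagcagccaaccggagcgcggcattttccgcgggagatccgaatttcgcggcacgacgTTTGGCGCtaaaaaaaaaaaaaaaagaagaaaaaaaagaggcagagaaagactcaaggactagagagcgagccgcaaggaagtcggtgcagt

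Stretches of 40 bases around the match nearest the start are set side by side for genes that moved in opposite directions after 6 h of IAA, with the match in capitals. The first 4 belong to genes that rose and the others to genes that fell:
CDC6: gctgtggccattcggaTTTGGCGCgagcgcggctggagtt
CLSPN: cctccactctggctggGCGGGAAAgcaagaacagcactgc
GINS1: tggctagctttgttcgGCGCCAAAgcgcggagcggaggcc
GINS3: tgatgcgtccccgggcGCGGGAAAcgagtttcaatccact
CDT1: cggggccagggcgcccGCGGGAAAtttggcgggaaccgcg
MCM2: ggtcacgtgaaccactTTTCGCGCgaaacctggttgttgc
MCM3: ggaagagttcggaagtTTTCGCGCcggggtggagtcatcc
MCM6: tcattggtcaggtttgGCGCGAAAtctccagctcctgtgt
UHRF1: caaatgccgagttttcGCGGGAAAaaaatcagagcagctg
LIG1: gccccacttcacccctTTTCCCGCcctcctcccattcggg
On the plus strand of GRCh38.p14 they lie at chr17:40287870-40287909 (CDC6), chr20:25407662-25407701 (GINS1), chr16:58392450-58392489 (GINS3), chr16:88803738-88803777 (CDT1), chr3:127598397-127598436 (MCM2) and chr19:4909471-4909510 (UHRF1). On the minus strand they lie at chr1:35769960-35769999 (CLSPN), chr6:52284723-52284762 (MCM3), chr2:135876506-135876545 (MCM6) and chr19:48170435-48170474 (LIG1). The MCM6 window held 4 matches in all, in overlapping pairs. The MCM2 window held 2 that overlap, and the second, GCGCGAAA, runs into the lower-case bases of the stretch shown. A match was present in 4 of the 8 genes with a window that rose at 6 h, in 11 of the 14 that fell and in 8 of the 18 that did not pass. At 24 h in CTCF-AID2 cells it was present in 3 of the 5 that rose, 7 of the 10 that fell and 13 of the 25 that did not pass. A link between a match and direction was not tested.

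Levels between genes were compared in TPM (a transcript measure that corrects for gene length and library size) in untreated CTCF-AID2 cells. MCM4 (175 ± 10.5 TPM, SD, n = 4) and MCM7 (118 ± 6.81 TPM), both subunits of the helicase, were highest, followed by PCNA (96.9 ± 8.44 TPM), UHRF1 (78.1 ± 8.08 TPM) and RRM2 (70.4 ± 5.76 TPM). Within each of the 4 libraries UHRF1 lay above RRM2, though by little in replicate 1 (66.3 against 64.1 TPM). MCM6 stood at 18.0 ± 1.17 TPM, well under the other subunits of its complex. The 3 E2F genes lay at 8.90 ± 0.612 TPM (E2F1), 8.58 ± 1.00 TPM (E2F2) and 7.69 ± 0.420 TPM (E2F8), where E2F1 and E2F2 did not differ beyond their spread. CCNE1 was lowest of the 47 at 1.54 ± 0.195 TPM, against 11.9 ± 1.09 TPM for CCNE2. Between libraries TPM was not used, because the summed TPM of the 49 genes varied from 1180 to 2301.

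After 24 h of 5-Ph-IAA in CTCF-AID2 cells, E2F2 mRNA rose by a log2 fold change of 1.05, and the other genes that passed moved by 0.32 or less in size. The question of this comparison was what loss of CTCF does to steady-state RNA. No cells without the degron were labeled as given 5-Ph-IAA. Loss of CTCF, loss of the degron-tagged EGFP and other effects of the agent therefore cannot be told apart here. At a limma adjusted p of at most 0.05, 7 of the 47 genes rose (E2F2, RRM2, CCNE2, E2F8, POLE, CLSPN and CHAF1A) and 11 fell (RFC2, RFC3, POLE2, UNG, POLD3, CCND3, MCM3, PCNA, MCM2, RFC4 and POLA1). Over all 13973 genes tested, 29.2% were called higher and 29.5% lower, so the shares of 14.9% and 23.4% in these genes were not above the background. The median log2 fold change was -0.02 for the 47 genes and 0.00 over all genes. When a size of 1 or more on the log2 scale was required as well, 1 of the 47 was called, E2F2, against 3.56% of all genes. In 7 of the 47 every treated library lay above every untreated one, and in 11 below. The share of all genes without overlap was not counted.

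E2F2 had 185, 192, 186 and 188 CPM in treated CTCF-AID2 libraries, against 88.3, 92.9, 87.3 and 94.6 CPM in untreated ones. The groups lay far apart (1.05 ± 0.03 on the log2 scale, SE, limma adjusted p = 3.09e-12). In SEM WT cells it had 110 and 115 CPM with IAA and 113 and 115 CPM without it, and these ranges overlapped (-0.02 ± 0.04, limma adjusted p = 0.816). E2F8, an atypical E2F that represses transcription, had 57.8, 56.5, 56.7 and 57.0 CPM in treated libraries, against 49.7, 47.9, 48.0 and 48.3 CPM in untreated ones, without overlap (0.23 ± 0.03, limma adjusted p = 4.54e-06). E2F1, an activator like E2F2, had overlapping values and did not pass (0.02 ± 0.04, limma adjusted p = 0.674).

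**Figure D1:**
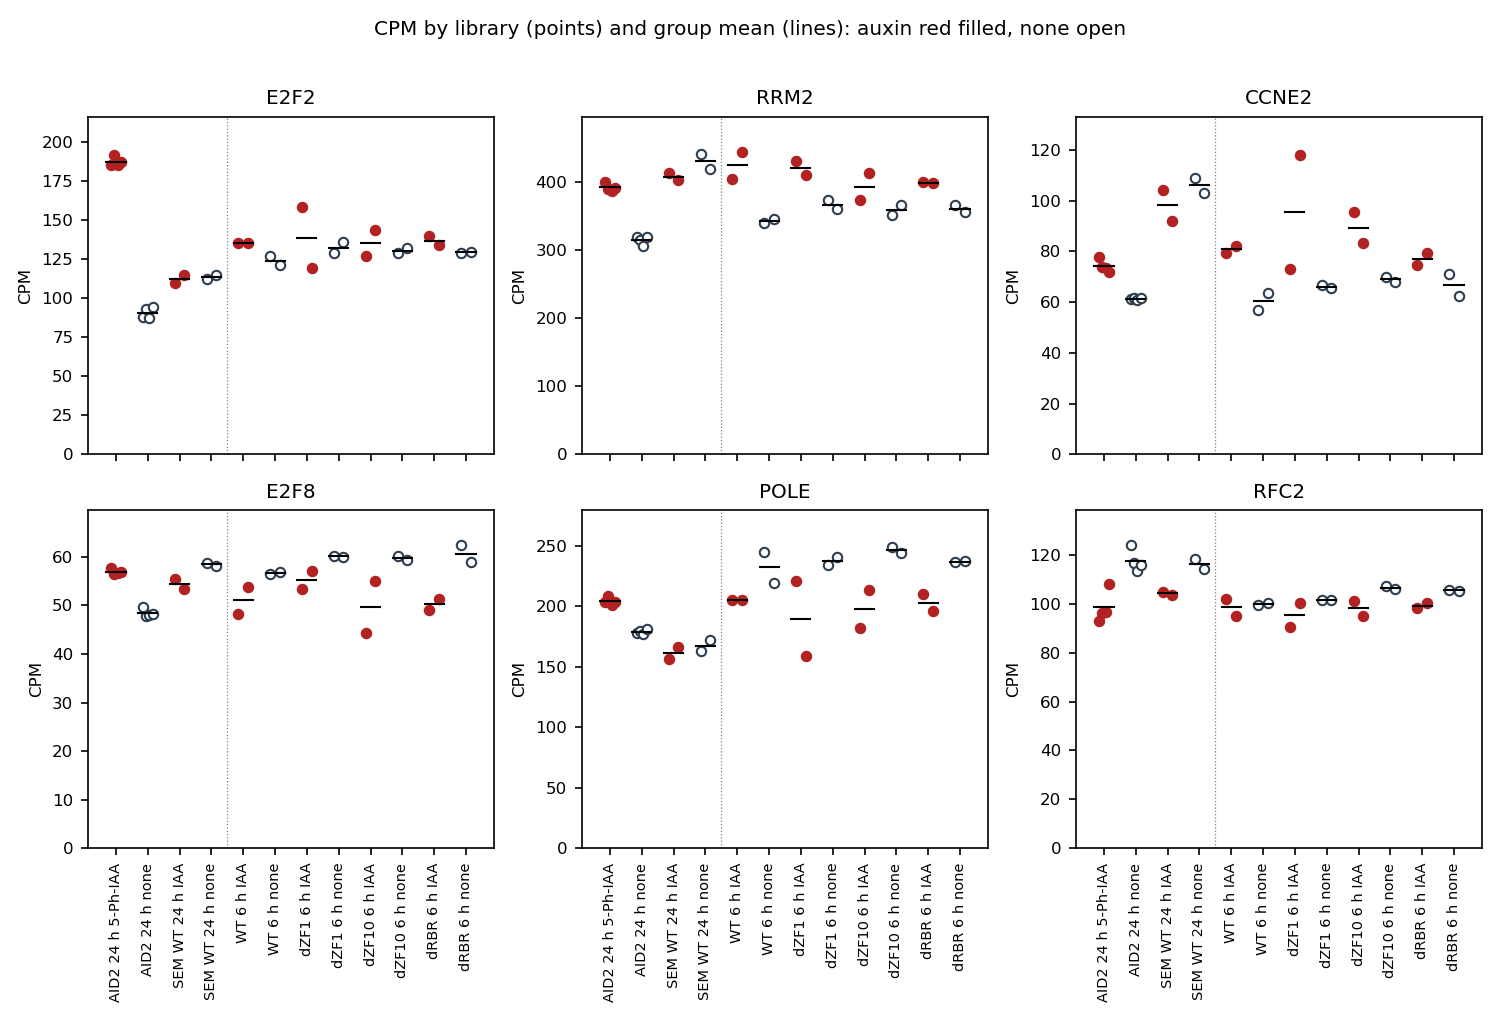
CPM of E2F2, RRM2, CCNE2, E2F8, POLE and RFC2 (vertical axes, from 0) in every library of 12 groups, with auxin as filled red points and without as open points; lines are group means and the dotted line parts the 24 h and 6 h sets. E2F2 stands at 185 to 192 CPM in treated CTCF-AID2 libraries only, and at 87.3 to 94.6 CPM without 5-Ph-IAA.

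E2F2 lies at chr1:23832930-23857725 (GRCh37, minus strand). The expressed genes within 250 kb were read as well, a choice made after the E2F2 values were seen. ASAP3, 46.7 kb away, was low (2.30 CPM treated and 1.29 CPM untreated) and rose by 0.84 ± 0.15 (limma adjusted p = 0.000311). On the other side ID3, 28.3 kb away and an inhibitor of helix-loop-helix factors, fell by 0.23 on the log2 scale, at 95.6 CPM treated and 112 CPM untreated (limma adjusted p = 0.000171). HNRNPR, an RNA binding protein gene at 357 CPM treated and 358 CPM untreated, did not pass (-0.01 ± 0.04, limma adjusted p = 0.899). Of the other neighbours, C1orf213 (0.71, limma adjusted p = 0.000181) and TCEB3 (0.09, limma adjusted p = 0.0129) rose. RPL11 (-0.19, limma adjusted p = 0.000105), PITHD1 (-0.13, limma adjusted p = 0.00379) and RP5-886K2.3 (-0.32, limma adjusted p = 0.0237) fell. ZNF436 and RP5-1057J7.6 did not pass. Over all genes tested, 29.2% were called higher and 29.5% lower.

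Of the S phase genes that rose, RRM2, the regulated subunit of ribonucleotide reductase, had 401, 390, 388 and 392 CPM in treated libraries, against 320, 315, 306 and 319 CPM in untreated ones. The groups did not overlap (0.32 ± 0.03, limma adjusted p = 1.35e-07), while its partner RRM1 did not pass (-0.07 ± 0.03, limma adjusted p = 0.0558). CCNE2, an E-type cyclin, had 77.8, 73.7, 73.4 and 71.8 CPM in treated libraries, against 61.1, 61.6, 60.9 and 61.7 CPM in untreated ones (0.27 ± 0.04, limma adjusted p = 4.19e-05). CCNE1, the other E-type cyclin, did not pass (-0.06 ± 0.08, limma adjusted p = 0.55). POLE, the catalytic subunit of the leading-strand polymerase, had 203, 209, 201 and 204 CPM in treated libraries, against 178, 180, 177 and 181 CPM in untreated ones (0.19 ± 0.03, limma adjusted p = 3.99e-05). CLSPN, a mediator of the replication checkpoint, had 124, 112, 120 and 118 CPM in treated libraries, against 105, 101, 105 and 109 CPM in untreated ones, so the groups lay apart but close (0.18 ± 0.04, limma adjusted p = 0.000556).

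Of the 11 genes that fell, 7 were among the 15 polymerase and clamp genes, of which 1 rose, with a median of -0.08 for the 15. The background was 29.5% of all genes called lower and 29.2% higher, and whether this role stood above it was not tested. RFC2, a subunit of the clamp loader, had 93.0, 96.4, 96.8 and 108 CPM in treated libraries, against 124, 117, 113 and 116 CPM in untreated ones, without overlap (-0.26 ± 0.04, limma adjusted p = 0.000127). POLE2, which pairs with POLE in the same polymerase, moved the other way, with 23.7, 23.0, 22.9 and 24.5 CPM treated and 26.7, 26.3, 28.3 and 26.5 CPM untreated (-0.20 ± 0.04, limma adjusted p = 0.00075). PCNA, the sliding clamp, had 262, 262, 253 and 254 CPM treated and 281, 283, 296 and 278 CPM untreated (-0.14 ± 0.03, limma adjusted p = 0.00048). POLD3, a subunit of the lagging-strand polymerase whose exons overlap another expressed gene, had 80.1, 76.6, 76.4 and 80.8 CPM treated and 91.5, 86.8, 84.0 and 91.5 CPM untreated (-0.17 ± 0.04, limma adjusted p = 0.00091).

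UNG, which removes uracil from DNA, had 54.0, 52.6, 51.1 and 54.0 CPM in treated libraries, against 61.8, 58.3, 59.8 and 58.5 CPM in untreated ones (-0.17 ± 0.04, limma adjusted p = 0.00079). MCM3, a helicase subunit, had 349, 351, 348 and 370 CPM treated and 407, 387, 387 and 384 CPM untreated (-0.14 ± 0.03, limma adjusted p = 0.000529), and 1 library lay apart in each group. Among the 9 licensing genes MCM2 also fell (-0.12 ± 0.03, limma adjusted p = 0.00451), and the other 7 did not pass. The 6 helicase activation genes ran from -0.06 (GINS1) to 0.07 (GINS3, limma adjusted p = 0.0564), with a median of 0.00. In the clamp loader genes RFC3 and RFC4 the groups were lower too, with RFC3 at 112, 107, 109 and 92.5 CPM treated and 121, 124, 126 and 121 CPM untreated (-0.22 ± 0.05, limma adjusted p = 0.00144). RFC4 had 67.9, 67.4, 64.8 and 69.7 CPM treated and 74.3, 71.0, 74.0 and 69.7 CPM untreated, where the groups touched (-0.10 ± 0.03, limma adjusted p = 0.0197). Without treated replicate 4, 19 of the 47 genes fell at 24 h instead of 11. The share over all genes was not counted in that fit, so whether these genes gained more calls than others cannot be said. Of 11 mitochondrial and structural RNAs, 1 rose (9.09%) and 2 fell (18.2%), against 29.2% and 29.5% of all genes, with a median of -0.02. One of those that fell was RN7SL1, an abundant structural RNA (-0.52 ± 0.06, limma adjusted p = 4.36e-06). The summed level of the 11 RNAs was 93600 to 110300 CPM treated and 110900 to 121600 CPM untreated. Their part in the result was not tested.

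**Figure D2:**
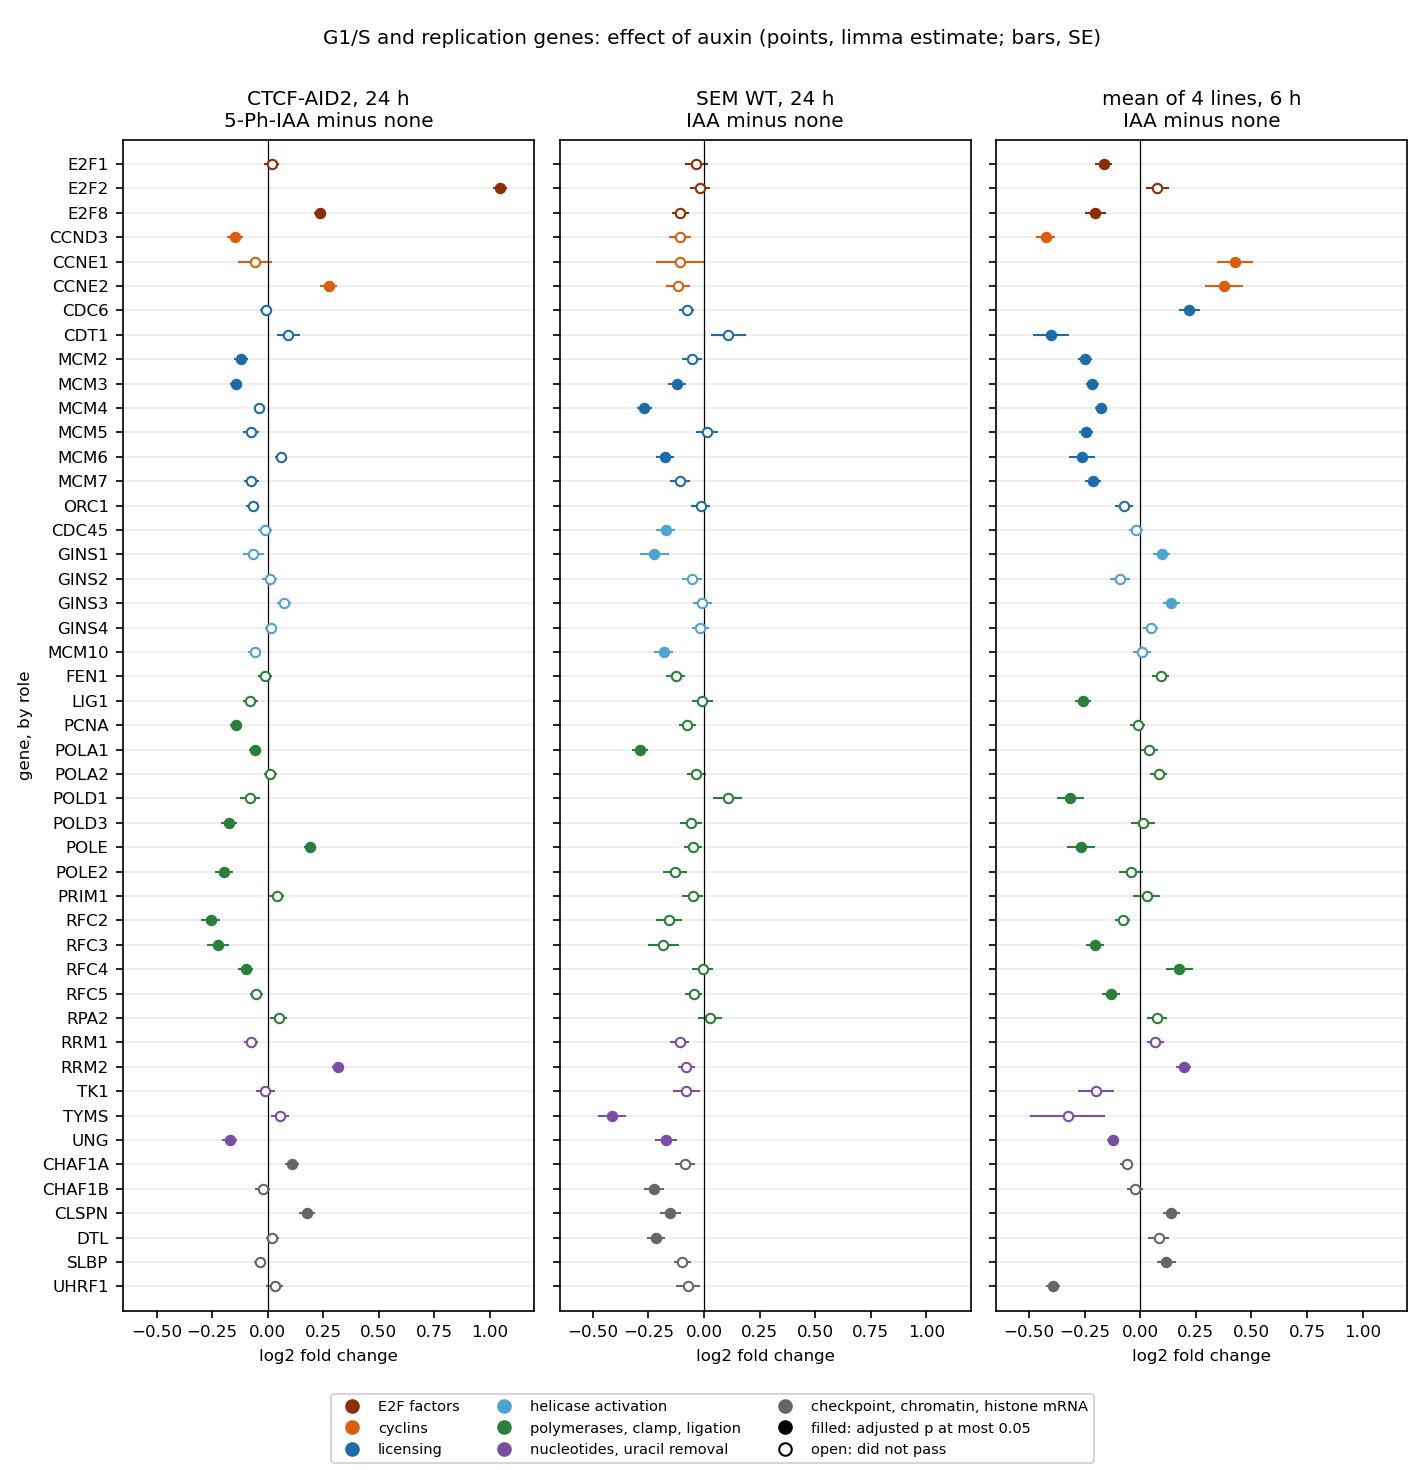
Log2 fold change (horizontal axes) of the 47 genes tested, by role, for 5-Ph-IAA in CTCF-AID2 cells at 24 h, IAA in SEM WT cells at 24 h and the mean of the 4 lines at 6 h, each with auxin minus without; points are limma estimates, bars are SE, and filled points passed at an adjusted p of at most 0.05. E2F2 at 1.05 in the left panel is the only gene at or above 1, all filled points of the middle panel are negative, and MCM2 to MCM7 all lie below 0 in the right panel.

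In SEM WT cells, which have no degron and were treated with IAA for 24 h, genes of this list only fell. Of the 47 genes, 12 fell (TYMS, POLA1, MCM4, DTL, CHAF1B, GINS1, MCM10, MCM6, CDC45, UNG, CLSPN and MCM3), against 9.57% of all genes called lower. None rose by limma, at an unadjusted p under 0.05 none did, and edgeR and DESeq2 also called 0, against 9.35% of all genes called higher. The estimate was negative in 43 of the 47, with a median of -0.09 for the 47 and 0.01 over all genes. The estimates ran from -0.41 to 0.11, so that no gene reached 1 in size, against 1.1% of all genes called past that size. Their summed level was 7757 and 7790 CPM with IAA, against 8430 and 8405 CPM without it.

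TYMS, thymidylate synthase, which lies antisense to another expressed gene, had 65.7 and 61.9 CPM with IAA and 82.6 and 87.4 CPM without it (-0.41 ± 0.06, limma adjusted p = 0.000427). POLA1, the catalytic subunit of the primase polymerase, had 128 and 125 CPM with IAA and 154 and 154 CPM without it (-0.29 ± 0.03, limma adjusted p = 5.54e-05). In MCM4 the libraries held 859 and 854 CPM with IAA and 1025 and 1038 CPM without it (-0.27 ± 0.03, limma adjusted p = 5.37e-05). None of these 3 genes had overlapping groups.

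DTL, a substrate receptor of the ligase that degrades CDT1 in S phase, had 187 and 173 CPM with IAA and 210 and 207 CPM without it (-0.22 ± 0.04, limma adjusted p = 0.00161). CHAF1B, a subunit of the histone chaperone CAF-1, had 40.4 and 38.3 CPM with IAA and 44.9 and 46.9 CPM without it (-0.22 ± 0.05, limma adjusted p = 0.00385). For MCM6 the values were 172 and 169 CPM with IAA and 189 and 195 CPM without it (-0.17 ± 0.04, limma adjusted p = 0.00919), and this call was lost when replicate 2 of either group was left out. The number of genes that fell was 7 without untreated replicate 1, 6 without untreated replicate 2 and 6 without IAA replicate 2. Shares of all genes were not counted in these fits. Of 11 mitochondrial and structural RNAs 3 fell in the same libraries (27.3%, against 9.57% of all genes), led by MT-CO3 (-0.63 ± 0.05, limma adjusted p = 3.24e-07). The 11 RNAs summed to 91120 and 107600 CPM with IAA and 82580 and 98920 CPM without it, and their part was not tested.

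The difference of the 24 h effects, CTCF-AID2 minus SEM WT, was higher in 14 of the 47 genes and lower in 0 by limma, against 19.3% and 20.9% of all genes. At an unadjusted p under 0.05, 1 was lower, and edgeR and DESeq2 called 0 lower. E2F2 had the largest difference (1.06 ± 0.05, limma adjusted p = 3.38e-09) and was the 1 gene with a log2 difference of at least 1, against 4.87% of all genes past that size. RRM2 differed by 0.40 ± 0.04 (limma adjusted p = 1.02e-05) and E2F8 by 0.34 ± 0.05 (limma adjusted p = 6.62e-05), where both rose in CTCF-AID2 cells and neither passed in SEM WT cells. TYMS (0.47 ± 0.07, limma adjusted p = 0.000203), MCM4 (0.23 ± 0.04, limma adjusted p = 0.00035) and DTL (0.24 ± 0.05, limma adjusted p = 0.00131) also differed, and of the separate tests these genes passed only that in SEM WT cells. Of the 3 genes that fell in both, POLA1 fell less in CTCF-AID2 cells (difference 0.23 ± 0.04, limma adjusted p = 0.000658). For the other two, UNG (0.00 ± 0.06, limma adjusted p = 0.993) and MCM3 (-0.02 ± 0.05, limma adjusted p = 0.782), the difference did not pass. The agents differ between the lines, with IAA and, per the methods, doxycycline in SEM WT cells, so line and agent cannot be told apart. SEM WT libraries also held fewer non-whole counts than CTCF-AID2 libraries (2.73 to 2.81% against 7.07 to 7.83% of genes), and levels were not tested between the lines.

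After 6 h of IAA, averaged over the 4 lines, MCM2 to MCM7, CCND3 and UHRF1 fell while both E-type cyclins and CDC6 rose. Of the 47 genes, 9 rose (CCNE1, CCNE2, CDC6, RRM2, RFC4, CLSPN, GINS3, SLBP and GINS1) and 17 fell (CCND3, CDT1, UHRF1, POLD1, POLE, MCM6, LIG1, MCM2, MCM5, MCM3, MCM7, RFC3, E2F8, MCM4, E2F1, RFC5 and UNG). Over all 13902 genes tested, 25.1% were called higher and 26.4% lower. No log2 fold change of the 47 reached 1 in size by limma, against 1.45% of all genes. All 26 genes that passed had the same sign in each of the 4 lines, but the mean of these lines had picked them. Of all 47 genes, 14 were higher and 22 lower in each of the 4 lines, and 11 were mixed. Among those higher, the lowest line estimate of DTL and of GINS4 rounded to 0. The share of all genes with the same sign in each line was not counted, so these counts cannot be called particular to these genes. The summed level of the 49 genes was 7670 to 7981 CPM with IAA and 8122 to 8804 CPM without it, and did not overlap. Without dZF1 IAA replicate 2, 11 genes rose and 21 fell, among them 8 of the 9 and all 17 genes called with it. GINS1 was the gene that lost its call, no called gene changed sign, and their estimates shifted by at most 0.09. The share of all genes called in that fit was not counted. Whether these genes gained more calls than others therefore cannot be said.

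Among the 9 licensing genes 7 fell and 1 rose, with a median of -0.22. The background at 6 h was 26.4% of all genes called lower and 25.1% higher, and whether this role stood above it was not tested. A lack of overlap within a line, 2 libraries against 2, was common. Of the 47 genes, both IAA libraries lay above both others in 16 (WT), 9 (dZF1), 8 (dZF10) and 12 (dRBR). They lay below in 21, 19, 21 and 24, in the same order. The share over all genes was not counted. MCM2 had 379 to 450 CPM with IAA (median 410, n = 8), against 444 to 518 CPM without it (median 498), and within each of the 4 lines both IAA libraries lay below both others (-0.25 ± 0.03, limma adjusted p = 4.71e-05). MCM3 had 348 to 384 CPM with IAA (median 359), against 392 to 451 CPM without it (median 419), with no overlap across the 8 and 8 libraries (-0.22 ± 0.03, limma adjusted p = 6.94e-05). MCM5 had 246 to 279 CPM with IAA (median 262), against 276 to 338 CPM without it (median 315), and was below in each line (-0.24 ± 0.03, limma adjusted p = 6.02e-05). The other subunits fell by like amounts, MCM4 by 0.18, MCM6 by 0.26 and MCM7 by 0.21 on the log2 scale. CDT1, which loads the MCM complex and is destroyed in S phase, fell further (-0.40 ± 0.08, limma adjusted p = 0.00134), with 51.5 to 83.7 CPM with IAA and 85.8 to 113 CPM without it. CDC6, its partner in loading, rose, with 99.8 to 130 CPM with IAA (median 106), against 85.2 to 100 CPM without it (median 92.6), and both IAA libraries lay above both others in each line (0.22 ± 0.05, limma adjusted p = 0.00235). ORC1, a subunit of the origin recognition complex, did not pass (-0.07 ± 0.04, limma adjusted p = 0.132), but fell without dZF1 IAA replicate 2 (-0.10 ± 0.03, limma adjusted p = 0.00702).

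**Figure D3:**
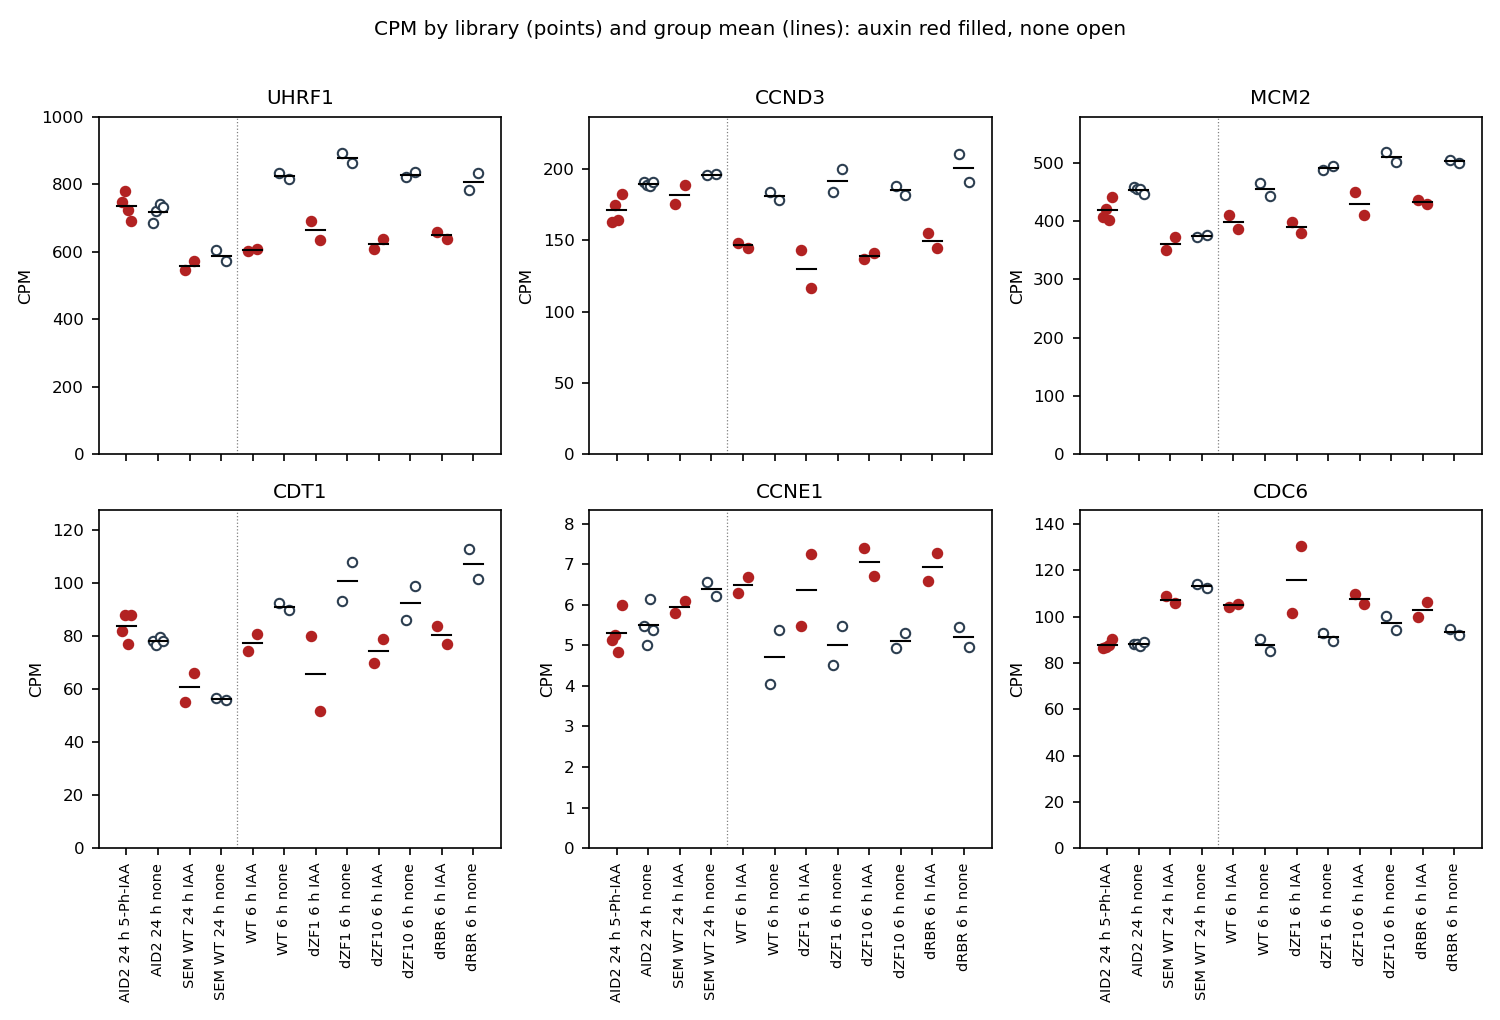
CPM of UHRF1, CCND3, MCM2, CDT1, CCNE1 and CDC6 (vertical axes, from 0) in every library of 12 groups, with auxin as filled red points and without as open points; lines are group means and the dotted line parts the 24 h and 6 h sets. In the 6 h lines UHRF1 stands at 603 to 693 CPM with IAA and 782 to 893 CPM without it, and CDC6 is above its untreated level in each line.

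The cyclins split. CCND3, the D-type cyclin these cells express, had 148 and 145 CPM (WT), 143 and 117 CPM (dZF1), 137 and 141 CPM (dZF10) and 155 and 145 CPM (dRBR) with IAA. Without IAA it had 184 and 178 CPM (WT), 184 and 200 CPM (dZF1), 188 and 182 CPM (dZF10) and 210 and 191 CPM (dRBR). Every IAA library lay below every other one (-0.43 ± 0.04, limma adjusted p = 1.25e-05). CCNE1 had 5.47 to 7.40 CPM with IAA (median 6.70), against 4.04 to 5.47 CPM without it (median 5.13), with no overlap within 3 of the 4 lines (0.43 ± 0.08, limma adjusted p = 0.00094). CCNE2 had 72.9 to 118 CPM with IAA (median 80.8), against 56.7 to 71.0 CPM without it (median 66.1), and was above in each line (0.38 ± 0.08, limma adjusted p = 0.00274).

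UHRF1, which carries DNA methylation through replication, had 603 and 609 CPM (WT), 693 and 634 CPM (dZF1), 610 and 639 CPM (dZF10) and 659 and 639 CPM (dRBR) with IAA. Without IAA it had 835 and 817 CPM (WT), 893 and 865 CPM (dZF1), 823 and 836 CPM (dZF10) and 782 and 833 CPM (dRBR). The groups did not overlap in any line (-0.39 ± 0.03, limma adjusted p = 1.29e-06). CLSPN had 118 to 154 CPM with IAA (median 133), against 108 to 137 CPM without it (median 121), with no overlap within 3 of the 4 lines (0.14 ± 0.04, limma adjusted p = 0.00805). SLBP, which binds histone mRNAs, rose by 0.12 ± 0.04 (limma adjusted p = 0.0355).

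LIG1, the ligase of Okazaki fragments, had 100 to 117 CPM with IAA (median 109), against 120 to 137 CPM without it (median 132), without overlap (-0.26 ± 0.03, limma adjusted p = 7e-05). RRM2 had 374 to 444 CPM with IAA (median 408), against 340 to 373 CPM without it (median 358), and was above in each line (0.19 ± 0.03, limma adjusted p = 0.000425). GINS3, a subunit of the GINS complex, had 68.0 to 84.6 CPM with IAA (median 72.0), against 63.8 to 72.4 CPM without it (median 66.4), and rose by little (0.14 ± 0.04, limma adjusted p = 0.00901). Both catalytic subunits of the main polymerases fell, POLD1 by 0.32 and POLE by 0.27 on the log2 scale, while PCNA did not pass (-0.01 ± 0.03, limma adjusted p = 0.814). TYMS, with 72.4 to 164 CPM with IAA and 123 to 167 CPM without it, varied too much between libraries to pass (-0.33 ± 0.17, limma adjusted p = 0.121). E2F2 had 119 to 158 CPM with IAA and 121 to 136 CPM without it, with overlap (0.08 ± 0.05, limma adjusted p = 0.243), and without dZF1 IAA replicate 2 it rose (0.13 ± 0.03, limma adjusted p = 0.00361).

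By line, 1 gene rose and 4 fell in the WT line (background 6.45% and 7.21% of all genes), and 7 rose and 15 fell in the dZF1 line (17.1% and 16.4%). In the dZF10 line 0 rose and 7 fell (8.88% and 9.24%), and in the dRBR line 0 rose and 4 fell (4.8% and 5.68%). In each of the dZF10 and dRBR lines limma gave 2 genes higher at an unadjusted p under 0.05, and edgeR and DESeq2 called 0 higher. UHRF1 and CCND3 fell in all 4 lines. UHRF1 fell by 0.45 (WT), 0.41 (dZF1), 0.41 (dZF10) and 0.31 (dRBR) on the log2 scale, with SE of 0.06 each and limma adjusted p of 0.000839, 0.000704, 0.00102 and 0.0085. CCND3 fell by 0.31, 0.57, 0.41 and 0.42 in the same order, with SE of 0.09 each and limma adjusted p of 0.0412, 0.000836, 0.00874 and 0.0121. RRM2 rose in the WT line (0.31 ± 0.07, limma adjusted p = 0.00979) and the dZF1 line (0.20 ± 0.07, limma adjusted p = 0.0374). RFC3 had 101 and 104 CPM with IAA and 124 and 129 CPM without it in the WT line (-0.30 ± 0.08, limma adjusted p = 0.0311). LIG1 fell in the WT, dZF1 and dZF10 lines, RFC3 in the WT and dZF1 lines, and MCM5 in the dZF1, dZF10 and dRBR lines (-0.26 ± 0.06, limma adjusted p = 0.0231, in dRBR). CDC6 (0.34 ± 0.10, limma adjusted p = 0.0186) and GINS3 (0.24 ± 0.07, limma adjusted p = 0.0307) rose in the dZF1 line, and MCM2 fell there (-0.34 ± 0.06, limma adjusted p = 0.00215). Without dZF1 IAA replicate 2 the dZF1 line had 12 genes past the test instead of 22, and CDC6 stood at 0.15 and GINS3 at 0.13, neither past the test. Leaving it out also changed the other lines, which share one estimate of spread, to 13 genes past the test in WT, 18 in dZF10 and 12 in dRBR. Shares of all genes were not counted in fits that left out a library. Whether calls changed more in these genes than in others therefore cannot be said. With only the 4 dZF1 libraries in the fit, limma and edgeR called 0 of the 47 and DESeq2 called 2, with 8 at an unadjusted p under 0.05 by limma. The count was 31 without dZF1 IAA replicate 1, and 11 and 7 without untreated dZF1 replicates 1 and 2. Leaving out any 1 of a line's 4 libraries left 1 to 2 genes past the test in WT, 2 to 5 in dZF10 and 0 to 2 in dRBR.

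**Figure D4:**
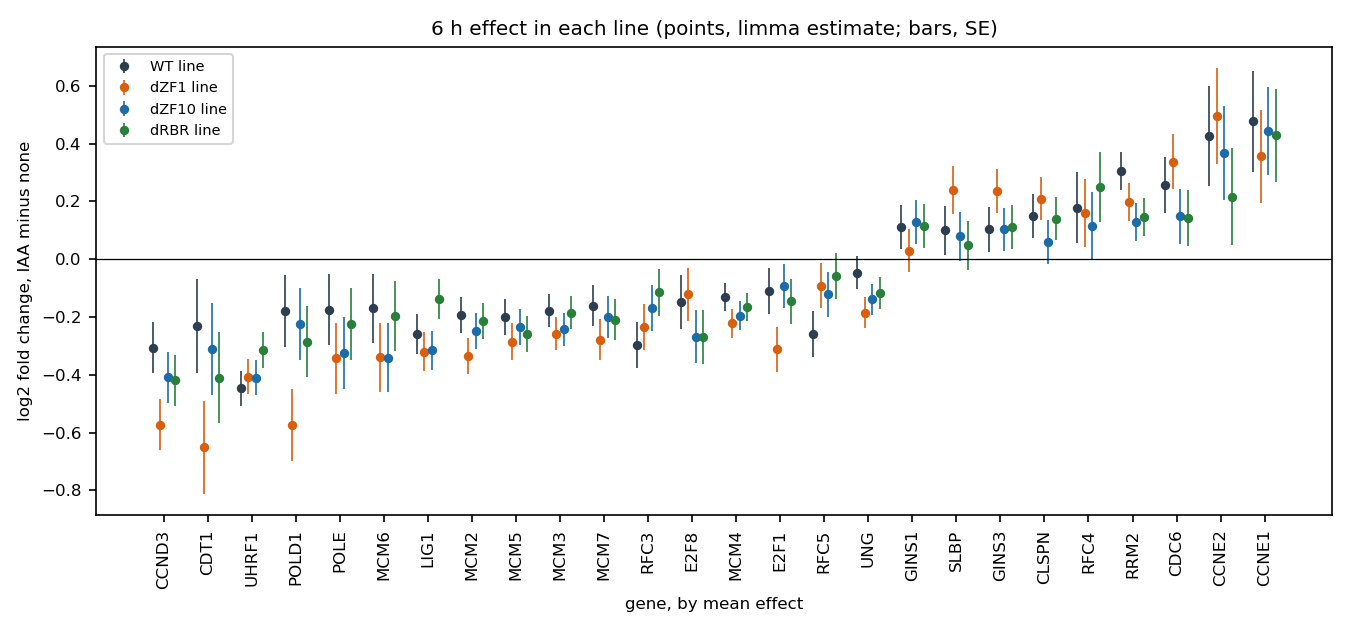
Log2 fold change (vertical axis, IAA minus none) in the WT, dZF1, dZF10 and dRBR lines at 6 h for the 26 genes that passed in the mean of the lines, ordered by that mean; points are limma estimates and bars are SE. The 4 points of each gene lie on the same side of 0, and UHRF1 ranges from -0.45 to -0.31.

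The lines were not shown to differ in these genes. For dZF1 minus WT, dZF10 minus WT and dRBR minus WT line effects, limma called 0 of the 47 each, against 0.331%, 0.0432% and 0% of all genes, and edgeR and DESeq2 also called 0. At an unadjusted p under 0.05 the counts were 1, 0 and 0. Without dZF1 IAA replicate 1, 14 genes passed for dZF1 minus WT, so that the count depended on which dZF1 library entered. The share of all genes was not counted there. Between lines without IAA, limma, edgeR and DESeq2 each called 0 of the 47 for dZF1, dZF10 and dRBR against WT, where limma also called 0% of all genes each time, and the counts at an unadjusted p under 0.05 were 1, 6 and 3. Estimates were positive in 43, 45 and 35 of the 47, with medians of 0.09, 0.10 and 0.07, in comparisons that share the WT libraries. An estimate that misses the threshold does not show equal levels.

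The effect at 24 h was set against that at 6 h in a fit of all 28 libraries. It was higher in 16 of the 47 genes and lower in 7, against 24.6% and 23% of all 14260 genes tested. E2F2 differed most (0.98 ± 0.07, limma adjusted p = 7.28e-10). E2F8 differed by 0.44 ± 0.06 (limma adjusted p = 4.45e-06), having risen at 24 h and fallen at 6 h, as did POLE (0.46 ± 0.08, limma adjusted p = 9.07e-05). UHRF1 differed by 0.43 ± 0.05 (limma adjusted p = 4.96e-07), with a fall at 6 h, while at 24 h it had 748, 780, 723 and 691 CPM treated and 685, 720, 741 and 732 CPM untreated, with overlap. Lower at 24 h were CCNE1 (-0.48 ± 0.12, limma adjusted p = 0.00227), CDC6 (-0.22 ± 0.06, limma adjusted p = 0.00656) and RFC4 (-0.27 ± 0.08, limma adjusted p = 0.0101), which rose at 6 h. At 24 h CCNE1 had 5.14, 5.24, 4.84 and 5.98 CPM treated and 5.48, 5.01, 6.14 and 5.38 CPM untreated, and CDC6 had 86.4, 86.9, 87.7 and 90.4 CPM treated and 88.4, 88.4, 87.5 and 89.1 CPM untreated, both with overlap. RFC4 had 66.5 to 86.8 CPM with IAA at 6 h and 56.0 to 73.1 CPM without it. Without dZF1 IAA replicate 2 the difference was higher in 17 genes and lower in 8, of which 16 and 6 were the same genes. For this fit and the others that left out a library, shares of all genes were not counted. The number lower was 12 without dZF1 IAA replicate 1. It was 4 without any 1 of WT untreated replicate 1, dZF10 IAA replicate 1, dZF1 untreated replicate 2, dRBR IAA replicate 2, treated CTCF-AID2 replicate 3 and untreated CTCF-AID2 replicates 1 and 2. Of the genes called at both times, 5 fell at both, 3 rose at both, 2 rose at 24 h and fell at 6 h, and 1 did the reverse. Time, agent and the added CTCF of the 6 h lines cannot be told apart in this comparison.

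Other genes of the cycle were read from lists for context, and their shares stand against the shares of all genes given above, 29.2% higher and 29.5% lower in CTCF-AID2 cells at 24 h, 9.35% and 9.57% in SEM WT cells and 25.1% and 26.4% at 6 h. Of 37 other replication factors, 11 rose (29.7%) and 10 fell (27%) in CTCF-AID2 cells at 24 h, close to those of all genes, among them CDC7, the kinase that fires origins (0.59 ± 0.03, limma adjusted p = 1.9e-09), and POLD2, a polymerase subunit (-0.44 ± 0.05, limma adjusted p = 1.14e-06). In SEM WT cells 5 fell (13.5%), led by RPA1 (-0.36 ± 0.04, limma adjusted p = 1.5e-05), and at 6 h 10 rose (27%) and 6 fell (16.2%), led by MCM8 (0.38 ± 0.05, limma adjusted p = 5.31e-05) and POLD2 (-0.28 ± 0.04, limma adjusted p = 9.2e-05).

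Among G1 kinases, inhibitors and RB family genes, 9 of 16 rose (56.2%) and 5 fell (31.2%) in CTCF-AID2 cells at 24 h, 4 fell in SEM WT cells (25%), and 10 of 17 rose (58.8%) and 4 fell (23.5%) at 6 h. SKP2, which targets the inhibitor p27 for destruction, rose at 24 h (0.68 ± 0.03, limma adjusted p = 2.07e-10). The INK4 inhibitors CDKN2D and CDKN2C rose at both times, CDKN2D by 0.55 ± 0.04 at 24 h (limma adjusted p = 6.89e-08) and 0.86 ± 0.04 at 6 h (limma adjusted p = 2.4e-08). CDK4, the kinase partner of CCND3, fell at both (-0.28 ± 0.03, limma adjusted p = 4.63e-06 at 24 h). MYC, a driver of growth and of G1 exit, averaged 185.1 CPM in treated and 341.5 CPM in untreated CTCF-AID2 cells at 24 h (-0.88 ± 0.03, limma adjusted p = 1.73e-11), and 178.1 CPM with and 199.1 CPM without IAA in SEM WT cells (-0.16 ± 0.04, limma adjusted p = 0.0205). At 6 h it fell by 1.22 on the log2 scale in the mean of the lines (limma adjusted p = 9.31e-10), and by 1.24 without dZF1 IAA replicate 2 (limma adjusted p = 2.91e-10). Its part in the other changes was not tested.

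Of the 7 other E2F and DP factors, 1 rose (14.3%) and 4 fell (57.1%) at 24 h in CTCF-AID2 cells, 2 fell in SEM WT cells (28.6%), and 2 rose (28.6%) and 3 fell (42.9%) at 6 h. E2F7, a repressor like E2F8, rose at 24 h (0.35 ± 0.03, limma adjusted p = 2.37e-07) and at 6 h (0.20 ± 0.03, limma adjusted p = 9.98e-05), where E2F8 fell. TFDP2, a partner of the E2Fs, fell in all of them, by 0.34, 0.32 and 0.23 on the log2 scale with limma adjusted p of 8.32e-06, 0.00223 and 0.000139. Of 17 S phase repair and checkpoint genes, 10 rose (58.8%) and 3 fell (17.6%) in CTCF-AID2 cells, 4 fell in SEM WT cells (23.5%), and 4 rose (23.5%) and 6 fell (35.3%) at 6 h, where HELLS, a chromatin remodeler, fell (-0.48 ± 0.04, limma adjusted p = 9.24e-07).

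Of 22 G2 and M genes, 16 rose (72.7%) and 1 fell (4.55%) in CTCF-AID2 cells at 24 h, 1 rose and 1 fell in SEM WT cells (4.55% each), and 14 rose in the mean of the lines at 6 h (63.6%). By line, limma called 14 of them higher in dZF1, 1 in dRBR and 0 in WT and dZF10, with 3 in WT and 2 in dZF10 at an unadjusted p under 0.05. In WT edgeR called 0 and DESeq2 1, and in dZF10 they called 0 and 2. The medians were 0.37 in dZF1, 0.11 in WT, 0.11 in dZF10 and 0.11 in dRBR. Without dZF1 IAA replicate 2, 15 rose in the mean of the lines, 7 in dZF1 (median 0.21), 2 in WT, 5 in dZF10 and 2 in dRBR. TPX2, a spindle factor, rose by 0.29 ± 0.02 at 24 h (limma adjusted p = 7.48e-08) and 0.29 ± 0.03 at 6 h (limma adjusted p = 2.63e-05), while CCNA2, the cyclin of S phase and G2, fell at 24 h (-0.14 ± 0.03, limma adjusted p = 0.00147). Of 14 to 15 p53 targets, 4 rose (28.6%) and 7 fell (50%) in CTCF-AID2 cells, 5 rose (35.7%) and 1 fell (7.14%) in SEM WT cells and 1 rose (6.67%) and 4 fell (26.7%) at 6 h. CDKN1A, which encodes the inhibitor p21, fell in CTCF-AID2 cells (-0.17 ± 0.03, limma adjusted p = 0.000389) and at 6 h (-0.23 ± 0.05, limma adjusted p = 0.00195). B lineage markers moved too, with 7 of 10 higher at 24 h in CTCF-AID2 cells (70%) and 8 of 11 lower at 6 h (72.7%). Their sum was 1415 to 1448 CPM treated and 1232 to 1255 CPM untreated at 24 h, and 1238 to 1516 CPM with IAA and 1366 to 1470 CPM without it at 6 h. The 8 myeloid markers summed to 25.04 to 27.95 CPM treated and 34.3 to 35.8 CPM untreated at 24 h, and to 13.9 to 19.5 CPM with IAA and 28.5 to 41.0 CPM without it at 6 h. Without dZF1 IAA replicate 2 the counts at 6 h were 10 higher and 7 lower for other replication factors, 10 and 4 for the G1 list, 2 and 3 for E2F and DP factors, 4 and 7 for repair genes, 2 and 5 for p53 targets and 1 and 8 for B lineage markers. The part of such shifts in the other values was not tested.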

How the data were processed

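RNA-seq from 28 libraries of SEM cells was analysed, of which 12 belong to the 24 h experiment and 16 to that at 6 h. Per the labels and the methods, the authors used Trim Galore 0.6.3 for trimming, STAR 2.7.9a for alignment to hg19 and RSEM 1.3.1 for quantification of genes. The deposited files hold expected counts per gene, not normalized, and TPM values, which RSEM corrects for gene length and library size. The labels name a 3′ kit and the methods rRNA-depleted total RNA, and use of strand in counting is not given in the sources used here, so 13 of the 49 genes whose exons overlap an expressed gene are uncertain (POLD3, CHAF1B, FEN1, PRIM1, CCND1, RFC5, GINS2, DTL, RFC4, MCM7, CHAF1A, CCNE2 and TYMS). Matrices that repeat the 6 h values were not used, and 92 spike-in entries at 0 counts were left out.

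Groups came from the labels. Expected counts were rounded and fitted with limma 3.58.1 (voom, TMM factors from edgeR 4.0.16, R 4.3.3), one mean per group over all libraries of a set, for genes above 1 CPM in at least 1 library, with Benjamini-Hochberg adjustment over all genes tested and a threshold of 0.05. Errors are SE of log2 fold changes and SD of levels. Scripts were tested on simulated data. Per-library values are given for up to 6 genes per direction with the smallest p in each main comparison and up to 3 in the others, plus CTCF and MYC. For the cycle lists up to 3 genes per direction were eligible. Genes that share a role or partner with those were named after their values were seen. The members, lists and tests were chosen with earlier results of these data known. Alternatives were edgeR, DESeq2 1.42.0, RLE factors, scaling by library size alone, another filter or none, a fit of the compared groups only, a replicate block and leaving out each library. Fits of the dZF1 libraries by the other tools, and of all 6 h results without dZF1 IAA replicate 2, were added after seeing the data. Deviations of same-numbered libraries correlated at -0.27 to 0.10 in CTCF-AID2 cells, 0.05 in SEM WT cells, and 0.21 (WT), -0.14 (dZF1), 0.27 (dZF10) and 0.19 (dRBR) at 6 h. As not every pair was above 0.1 and the labels name no shared batch, the numbers were not used as pairs. GRCh37 positions came from Gencode lifted annotation and promoter sequences from RefSeq.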

Additional observations from a re-analysis of the deposited data

Results flagged for a closer look

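MCM3 stood out at 370 CPM in treated CTCF-AID2 replicate 4 and at 407 CPM in untreated replicate 1, since each lay further from the other 3 libraries of its group than a test for a single outlier allows. Chance flags about 1 in 20 such sets, and 2 of 26 were flagged. The effects of auxin at 24 h differed between CTCF-AID2 and SEM WT cells, by the test of the difference, for E2F2 (1.06), RRM2 (0.40) and E2F8 (0.34), on the log2 scale. The effect at 24 h in CTCF-AID2 cells differed from the mean effect at 6 h for E2F2 (0.98), E2F8 (0.44), UHRF1 (0.43), CCNE1 (-0.48), RFC4 (-0.27) and CDC6 (-0.22).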

How the results depend on the processing

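Of the genes named by smallest p in each comparison, none changed sign under any alternative run. Genes that had not passed could change sign. Without dZF1 IAA replicate 2, TYMS in the dZF1 line went from -0.58 to 0.01 and PRIM1 from 0.10 to -0.13. With DESeq2 the genes past the test at 6 h were 10 in the WT line and 7 in dRBR. Over all 13902 genes, 989 rose and 1043 fell in WT, and 799 and 817 in dRBR. With no filter 2, 13 and 2 of the 47 passed in WT, dZF1 and dRBR. Over all 31253 genes, 620 rose and 618 fell in WT, 2034 and 1680 in dZF1 and 455 and 452 in dRBR. With only the groups compared 15, 0 and 12 passed, and all genes were not counted there. The falls in the 24 h minus 6 h effect were 4 with library size alone and 4 with the replicate block, against 3021 and 2975 of all 14260 genes. The block changed no other count by over 1.5 times, and the numbers were not taken to pair these libraries. The median of the 47 genes was 0.00 (CTCF-AID2) and 0.10 (difference at 24 h) with library size alone, and -0.03 (24 h minus 6 h) with no filter. Leaving out 1 library gave 9 to 19 falls in CTCF-AID2 cells at 24 h, 6 to 11 falls and 0 to 1 rises in SEM WT cells, and 0 to 3 genes lower in the difference (2 without treated CTCF-AID2 replicate 4, 3 without SEM WT IAA replicate 1). At 6 h it gave 1 to 2 genes in WT, 7 to 31 in dZF1, 2 to 5 in dZF10, 0 to 2 in dRBR and 0 to 14 in dZF1 minus WT. For 24 h minus 6 h it gave 4 to 12 falls. Each library left out for these ranges belonged to the groups compared. Leaving out dZF1 IAA replicate 2 also raised the counts in the other 6 h lines, beyond these ranges, as given above. Shares of all genes were not counted for fits that left out a library. The causes were not tested. With 2 libraries per group at 6 h, counts within a line depend on single libraries, whereas UHRF1 ran from -0.41 to -0.37 in the mean of the lines and E2F2 from 1.02 to 1.07 at 24 h over all alternatives.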
